A study of Mus musculus with 4 samples.

Results

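Early erythroid progenitors with little globin were 1821 of 16658 kept cell barcodes in 4 single-cell libraries of limb bone marrow. They expressed Klf1 and Car1, held few globin transcripts and came almost wholly from the control libraries. A barcode was kept with 1000 or more UMIs (unique molecular identifiers, each marking 1 captured transcript), with 500 or more genes and with no more than 10% of its UMIs from mitochondria. A kept barcode was then taken as a low-globin progenitor when it held at least 2 UMIs of Klf1 and of Car1, no UMI of Cdh5 or Ibsp, and less than 1% of its UMIs on the 4 adult globin genes Hba-a1, Hba-a2, Hbb-bs and Hbb-bt. The members were thus chosen by measured UMIs of these genes in the same cells, and the levels of those genes, the shares of members and the genes that differ with globin are given as descriptions.

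The 2 mutant libraries were made from mice labelled Prx1-cre;Mettl3-fl/fl (mutant 1) and from mice whose genotype is labelled only as mutant (mutant 2), and the 2 control libraries from mice labelled control. All mice were C57BL/6 at postnatal day 12, with 3 mice of each genotype and no record of which mice went into which library. Prx1-cre is known for driving recombination in limb mesenchyme, which does not give rise to blood cells, and METTL3 is the enzyme that writes the m6A mark on RNA. The cells were sorted as live, CD45-negative and Ter119-negative before 10x Genomics 3′ sequencing, so every erythroid cell here had passed a gate meant to remove cells with these blood surface markers.

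Red cell production passes from KIT-positive progenitors through erythropoietin-dependent colony-forming cells to erythroblasts that fill with haemoglobin. Early cells divide fast and build ribosomes, with MYC and MYB among the factors that hold them in that state. GATA1 and KLF1 then switch on the haem pathway, the membrane skeleton and globin. The Ter119 antigen appears on the surface late in this sequence, and CD45 is low on erythroblasts.

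The members were unevenly spread over the libraries. They made up 7 of 2628 kept barcodes in mutant 1, 0.266% (95% exact Clopper-Pearson interval 0.107% to 0.548%), and 59 of 4587 in mutant 2, 1.29% (0.981% to 1.66%). In control 1 they were 875 of 5808, 15.1% (14.2% to 16.0%), and in control 2 they were 880 of 3635, 24.2% (22.8% to 25.6%). The lower control share was above the higher mutant share. These intervals cover counting error only, and the dominance of control cells was part of how the group was described, so no test was made. Osteolineage markers were measured in the kept barcodes that failed any of the Klf1, Car1, Cdh5 and Ibsp conditions. The same mutant libraries held 1175 and 586 UMIs of them per 10000 UMIs there, against 312 and 104 in the control libraries. A share of barcodes thus also depends on how many other cells passed the sort. Fewer erythroid cells and more of the other cells in a library cannot be told apart from these shares.

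Globin content divided the Klf1+ Car1+ barcodes into these members and 2332 globin-bearing cells, which met every other condition but had at least 1% globin. Low-globin members were 43.8% of the 16 Klf1+ Car1+ barcodes in mutant 1 and 26.7% of 221 in mutant 2, against 42.1% of 2078 in control 1 and 47.9% of 1838 in control 2. The interval for mutant 1 was 19.8% to 70.1% and holds the values of all the other libraries. That for mutant 2, 20.99% to 33.0%, lay below those of both controls. These intervals too cover counting error only, since cells of a library are not replicates. With no limit on Cdh5 and Ibsp the shares were 32.3% and 35.6% in mutant 1 and mutant 2, against 42.2% and 48.4% in control 1 and control 2.

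**Figure D1:**
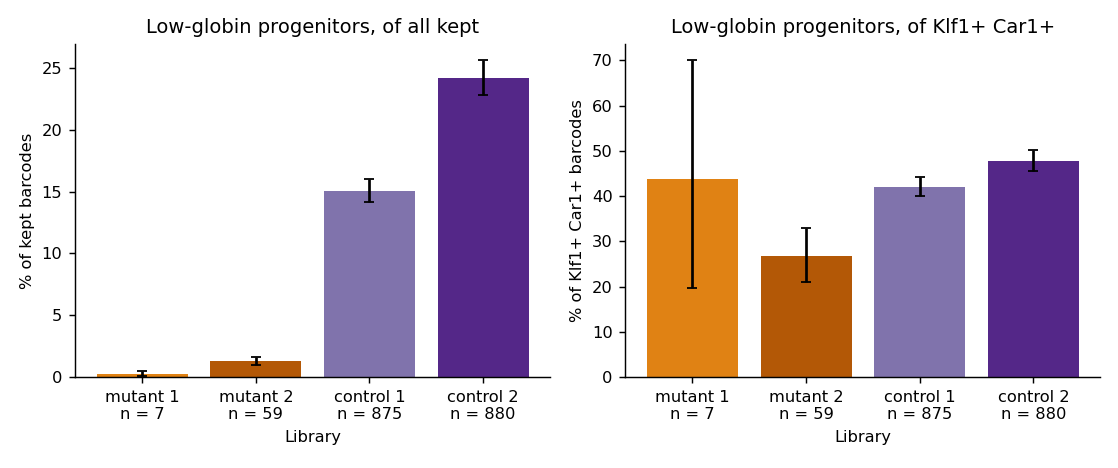
Low-globin progenitors as a percent of all kept barcodes (left) and of Klf1+ Car1+ barcodes (right) in each of the 4 libraries, with 95% exact Clopper-Pearson intervals as bars and n the number of low-globin progenitors. Both mutant libraries sit below 2% of kept barcodes on the left and both control libraries above 14%, while on the right mutant 1 lies among the controls with a wide interval.

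The condition of no Cdh5 or Ibsp UMI, which keeps out endothelial cells and osteoblasts, weighed more on mutant 2 than on the other libraries. It alone turned away 111 barcodes in mutant 2, more than the 59 kept as members, against 49 in control 1 and 36 in control 2, and 3 in mutant 1. Of the 111 barcodes, 106 held Ibsp and 54 held exactly 1 UMI of the 2 genes. Free RNA, read from barcodes with 10 to 100 UMIs, held 4042 CPM (counts per 1000000 UMIs) of Ibsp in mutant 2, 503 in control 1 and 30.2 in control 2. Mutant 1 was deposited with called barcodes only and has no such measure. With no limit on Cdh5 and Ibsp, low-globin progenitors were 0.381% and 3.71% of kept barcodes in mutant 1 and mutant 2, against 15.9% and 25.2% in control 1 and control 2.

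The label was checked against marker genes. The markers Klf1, an erythroid transcription factor (chromosome 8, 84901928 to 84905291, mm10), and Car1, carbonic anhydrase 1 (chromosome 3, 14766216 to 14808368), were set by the rule. The other markers were not used by it. C1qtnf12, a secreted protein of the C1q and TNF family (chromosome 4, 155962318 to 155966629), had 815 and 658 CPM in members of mutant 1 and mutant 2, against 785 and 766 CPM in control 1 and control 2. CPM of members was taken over their summed UMIs after all 8 globin genes were removed. Stard10, a lipid transfer protein (chromosome 7, 101317086 to 101346626), had 187 and 325 CPM in the mutant libraries and 340 and 360 CPM in the control libraries. Every gene of the list of 20 early erythroid markers was detected in the members of every library. The list includes Klf1 and Car1, so their detection and their part of its sum in members were set by the rule. The list summed to 93.7 and 76.9 UMIs per 10000 in mutant members and 83.4 and 80.9 in control members. Globin-bearing cells had more of it, with 101 and 108 in the mutant libraries and 98.2 and 98.6 in the control libraries. The list as a whole therefore does not set the members apart from globin-bearing cells. Kept barcodes that were neither members nor globin-bearing cells had 6.00 and 22.4 in the mutant libraries and 56.4 and 60.5 in the control libraries. They include the Klf1+ Car1+ barcodes turned away for a UMI of Cdh5 or Ibsp. Free RNA had 21.7 in mutant 2, 59.0 in control 1 and 70.0 in control 2, near the level in those other barcodes. How much of that level came from free RNA and how much from the Klf1+ Car1+ barcodes turned away was not tested.

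The erythropoietin receptor gene Epor had 93.5 and 96.4 CPM in mutant members and 107 and 89.7 CPM in control members. Gata1, the master erythroid transcription factor, had 80.1 and 102 CPM in mutant members and 108 and 121 CPM in control members. Kit, the receptor for stem cell factor, had 33.4 and 40.6 CPM in mutant members, against 40.6 and 51.9 CPM in control members. Of the 16 genes on the stem and multilineage progenitor list, 11 and 4 gave no UMI in members of mutant 1 and mutant 2, and 2 gave none in each control. The list, which holds Kit, Myb and Lmo2, summed to 3.94 and 4.87 UMIs per 10000 in mutant members and 4.73 and 5.16 in control members. Cd34, a marker of stem cells, gave 0 and 1 UMIs in all the summed members of mutant 1 and mutant 2, against 1 and 2 UMIs in control 1 and control 2. Ptprc, which encodes CD45, was at 0 and 7.17 CPM in mutant members and 1.79 and 3.90 CPM in control members. These RNA values say nothing of the surface proteins on which the cells were sorted.

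Markers of other lineages were low. The megakaryocyte list of 8 genes had 0 and 0.123 UMIs per 10000 in mutant members and 0.137 and 0.212 in control members. The mast and basophil list of 7 genes had 0 in both mutant libraries and at most 0.018 in the control libraries. The osteolineage list was at 2.60 and 2.94 in mutant members and 0.642 and 0.173 in control members. The endothelial list was at 0.401 and 0.848 in mutant members and 0.473 and 0.598 in control members. These lists include Ibsp and Cdh5, which the rule excluded, so their low levels were partly set by the rule. The neutrophil list of 10 genes stood apart at 11.2 per 10000 in mutant 2, where 1 barcode held 2519 of its 2801 UMIs, and was at 0.200 in mutant 1, 0.064 in control 1 and 0.153 in control 2. The stromal list was at 0.067 and 0.020 in mutant members and 0.738 and 0.032 in control members. The B-lineage list was at 0.067 and 0.024 in mutant members and 0.196 and 0.015 in control members. In control 1, 5 members had 0.5% or more of their UMIs on the stromal list and 2 on the B-lineage list. The macrophage list was at most 0.334 (mutant 2) and the chondrocyte list at most 0.032 (control 1). No member barcode sequence occurred among the members of more than 1 library. A doublet score (Scrublet) marked 0 and 2 mutant members and 43 and 29 control members, which were retained.

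Low-globin members had a higher median depth than the other barcodes in the 3 libraries with more than 7 of them. Their median was 20699 UMIs in mutant 1 and 45066 in mutant 2, against 36045 in control 1 and 46031 in control 2. Globin-bearing cells had medians of 25417, 22848, 23944 and 27469 UMIs in the same libraries. Other kept barcodes had medians of 16308, 9685, 7357 and 9647 UMIs. The members of mutant 2, control 1 and control 2 had medians of 5811, 4977 and 5833 genes, while globin-bearing cells had 3646, 3855 and 4374. In control 2 the members carried 42.5% of all UMIs of kept barcodes, in control 1 they carried 29.3%, and in mutant 2 they carried 3.59%. The rule itself favours deep barcodes, since it asks for 2 UMIs of each marker. When every kept barcode with at least 5000 UMIs was thinned at random to 5000 UMIs before the rule was applied, the members fell to 2 and 32 barcodes in the mutant libraries and 198 and 206 in the control libraries, or 0.0896% and 0.992% against 4.48% and 6.41% of the barcodes that could be thinned.

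**Figure D2:**
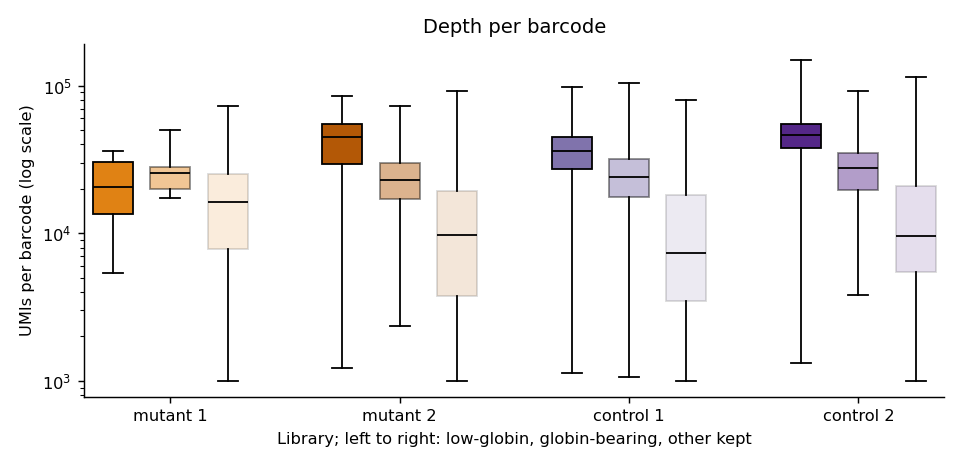
UMIs per barcode on a log scale in each library for low-globin progenitors, globin-bearing Klf1+ Car1+ cells and other kept barcodes, as medians (line), quartiles (box) and lowest and highest barcode (whiskers). The low-globin medians of 45066, 36045 and 46031 UMIs in mutant 2, control 1 and control 2 lie above the other boxes' medians, and mutant 1 holds only 7 such cells.

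Within the low-globin limit the members formed a gradient. Median globin was 0.158% and 0.150% of UMIs in mutant 1 and mutant 2, and 0.188% and 0.118% in control 1 and control 2. Free RNA held 4.16% globin in mutant 2, 3.86% in control 1 and 4.68% in control 2, so part of the globin in a member can be free RNA, and its share was not tested. Between 0.9% and 1% globin there were 1 and 2 mutant members and 39 and 21 control members. Just beyond, from 1% to 1.1%, there were 1 and 3 mutant barcodes and 32 and 27 control barcodes, so the limit cuts through a continuous range.

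Ribosome biogenesis transcripts were highest in the members with the least globin. The list of 85 genes, which covers RNA polymerase I and the factors that cut, modify and assemble ribosomal RNA, took 184, 159 and 133 UMIs per 10000 in mutant 2 members with 0 to 0.1%, 0.1 to 0.3% and 0.3 to 1% globin. The same bins gave 161, 142 and 124 in control 1, and 182, 157 and 134 in control 2. In globin-bearing cells the list was at 69.3 in mutant 2, 79.9 in control 1 and 82.9 in control 2. The bins held 24, 16 and 19 cells in mutant 2, 307, 254 and 314 in control 1, and 405, 227 and 248 in control 2. The mutant 2 bins of 16 and 19 cells are thin, and the order was the same in both control libraries. Glycolysis genes followed the same order, with 34.0, 28.7 and 23.0 per 10000 in mutant 2, 28.9, 25.9 and 24.0 in control 1, and 27.3, 23.5 and 20.1 in control 2.

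Cell cycle and haem genes ran the other way. The S phase list of 43 genes took 54.8, 71.1 and 85.5 UMIs per 10000 over the 3 bins in mutant 2, 57.0, 68.9 and 77.2 in control 1, and 63.7, 76.2 and 88.7 in control 2. The G2 and M phase list of 52 genes took 88.6, 101 and 128 in mutant 2, 87.0, 102 and 115 in control 1, and 90.3, 110 and 127 in control 2. The haem synthesis list of 17 genes took 26.7, 36.7 and 47.8 in mutant 2, 32.1, 42.8 and 51.3 in control 1, and 28.2, 37.4 and 46.5 in control 2. In every one of these libraries each bin with more globin had more S phase, G2 and M phase and haem transcripts than the one before.

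**Figure D3:**
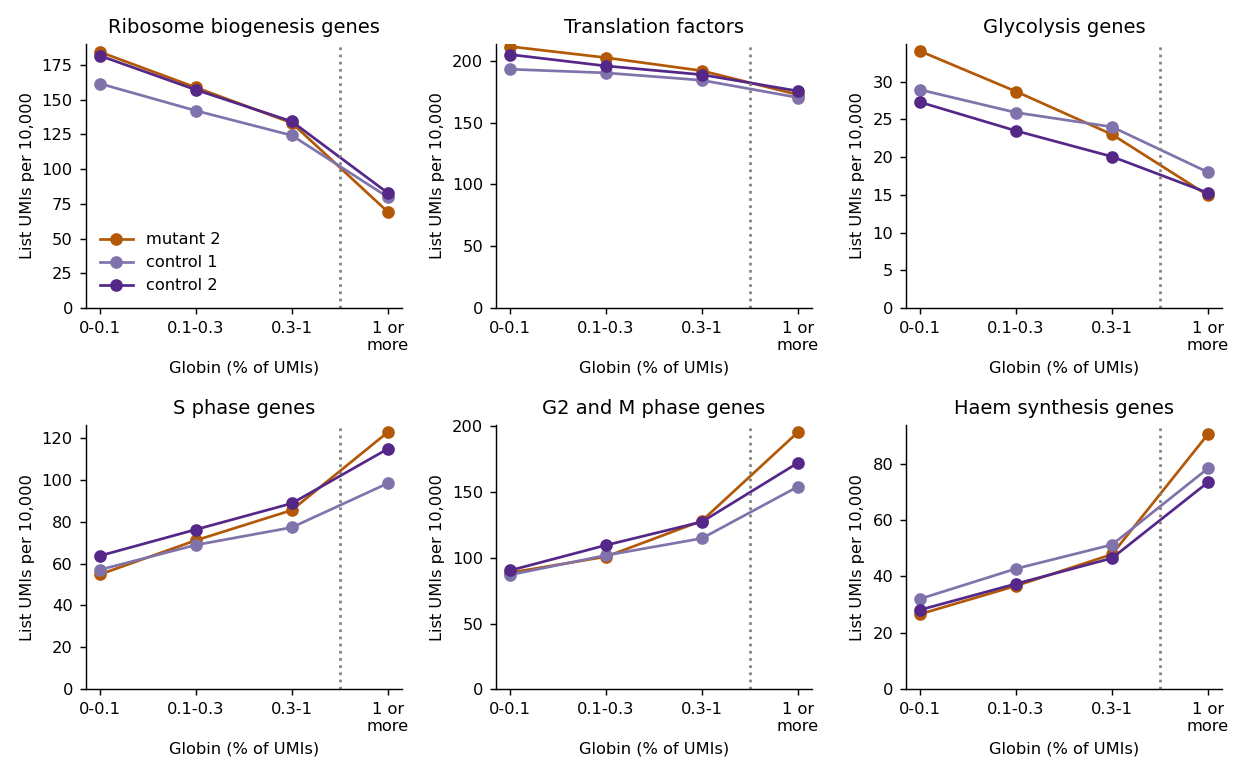
UMIs of 6 gene lists per 10000 UMIs with globin genes removed (vertical axes from 0), over bins of globin content from low to high, in mutant 2, control 1 and control 2; the dotted line is the 1% limit, with low-globin progenitors left of it and globin-bearing cells right of it. Ribosome biogenesis, translation factor and glycolysis transcripts run downward and S phase, G2 and M phase and haem transcripts upward in all 3 libraries.

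Single genes traced the same gradient. Kit was at 60.9, 37.2 and 16.0 CPM over the bins in mutant 2, 71.9, 32.0 and 12.2 CPM in control 1, and 78.2, 34.6 and 16.8 CPM in control 2. Tfrc, the transferrin receptor that takes up iron, went the opposite way, with 550.2, 755 and 1031 CPM in mutant 2, 701, 810 and 973 CPM in control 1, and 836, 1088 and 1267 CPM in control 2. Ccnd2, a D-type cyclin that drives entry into the cell cycle, was at 51.7, 32.4 and 4.93 CPM in mutant 2, 42.8, 21.04 and 14.8 CPM in control 1, and 54.5, 21.04 and 13.9 CPM in control 2. Ccnd3, the D-type cyclin known for its role in erythroblast divisions, was at 54.5, 123 and 263 CPM in mutant 2, 76.4, 151 and 267 CPM in control 1, and 72.2, 154 and 305 CPM in control 2. In each library every bin with more globin had less of Ccnd2 and more of Ccnd3. Gata2, a factor of earlier progenitors, did not exceed 8.10 CPM in any bin of these libraries.

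The same relations held across cells brought to one depth. Over members thinned to 5000 UMIs, Spearman's rho between globin content and ribosome biogenesis UMIs was -0.61 in mutant 2 (55 cells), -0.50 in control 1 (860 cells) and -0.57 in control 2 (879 cells). Between globin content and S phase UMIs rho was 0.49, 0.46 and 0.54 in the same libraries. Original depth was itself related to ribosome biogenesis UMIs, with rho of 0.19 in mutant 2 and 0.31 in both controls. Cells of 1 library share its free RNA and are not replicates, so these are descriptions.

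All members held cell cycle transcripts at matched depth. After thinning to 5000 UMIs, 7 and 55 members remained in mutant 1 and mutant 2, and 860 and 879 in control 1 and control 2, with 0, 4, 15 and 1 left out as too shallow. In 100% of them the S phase list or the G2 and M phase list reached 10 UMIs. The 95% exact interval began at 59.0% in mutant 1, 93.5% in mutant 2, 99.6% in control 1 and 99.6% in control 2. Endothelial barcodes (at least 2 UMIs of Cdh5 and none of Klf1) reached it in 11.8% of 34 and 25.3% of 807 in the mutant libraries. In the control libraries it was 20.0% of 20 and 21.4% of 457. Left out as too shallow were 16 and 99 in the mutant libraries and 7 and 54 in the control libraries. The interval for the 20 barcodes of control 1 was 5.73% to 43.7%. The thinned endothelial barcodes had median depths before thinning of 7372 and 11270 UMIs in the mutant libraries and 7144 and 8736 in the control libraries. Without thinning, and with the shallower barcodes included, the S phase list alone reached 10 UMIs in 16.0% and 45.7% in the mutant libraries. In the control libraries it did so in 22.2% and 31.9%. Free RNA held 24.6 S phase UMIs per 10000 in mutant 2, 57.6 in control 1 and 66.7 in control 2. It held 46.0 G2 and M phase UMIs per 10000 in mutant 2, 89.8 in control 1 and 101 in control 2, near the levels of the control members themselves, and its part in these counts was not tested. Thinned members had a median of 30 and 32 S phase UMIs in mutant 1 and mutant 2, against 34 and 37 in control 1 and control 2. Globin-bearing cells of the same libraries had 40, 55, 47 and 55, and endothelial barcodes had 4 in each. No phase was assigned to single cells, and no share of dividing cells is read from these values.

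The members were then set against the globin-bearing cells of mutant 2, control 1 and control 2, with counts summed per library and class, globin genes removed and library as a term in edgeR's quasi-likelihood model. Because globin content made both classes, the counts of genes describe the 2 sides of the limit and nothing is read from them as a test. Of 11423 genes, 3259 were higher in low-globin members at an adjusted p under 0.05, 28.5% of those tested, and 3064 were lower, 26.8%. Without control 2 these counts were 2063 and 1962. The median over all tested genes was 0.02 on the log2 scale. Lists below are given beside these shares and this median.

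Kit and the red cell genes Alas2 and Slc4a1 lay far apart in the 2 classes. Kit, the marker of early progenitors, had 40.6, 40.6 and 51.9 CPM in low-globin members of mutant 2, control 1 and control 2, against 2.88, 3.42 and 3.44 CPM in globin-bearing cells. The groups did not overlap, and the log2 difference was 3.59 ± 0.11 (SE). Alas2, the erythroid enzyme that begins haem synthesis, had 7.96, 5.09 and 5.21 CPM in low-globin members, against 419, 158 and 180 CPM in globin-bearing cells, with a log2 difference of -5.29 ± 0.12. Slc4a1, the band 3 anion exchanger of the red cell membrane, had 6.37, 10.6 and 9.94 CPM in low-globin members, against 849, 411 and 494 CPM in globin-bearing cells, with a log2 difference of -5.80 ± 0.20. Klf1 was moderately lower in low-globin members, by a log2 difference of -0.67 ± 0.07, and Car1 was level at -0.04 ± 0.08. Of the 20 early erythroid markers 5 were higher and 13 lower, with a median of -0.47. C1qtnf12 was higher at 0.86, and Stard10 was lower at -0.24, which did not pass without control 2.

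The proximal promoters of Klf1, Kit and Alas2 are shown because Klf1 marks the cells and Kit and Alas2 stand on opposite sides of the globin limit. They run from 250 bases before to 50 bases after the RefSeq start (GRCm38.p6, 5′ to 3′ on the plus strand), with capitals marking matches on either strand to GATAA, the core bound by GATA factors, and CCNCNCCC, the core bound by KLF1. On the plus strand a match to the minus strand reads TTATC, or GGG followed by N, G, N and GG.
Klf1, chr8:84901732-84902031: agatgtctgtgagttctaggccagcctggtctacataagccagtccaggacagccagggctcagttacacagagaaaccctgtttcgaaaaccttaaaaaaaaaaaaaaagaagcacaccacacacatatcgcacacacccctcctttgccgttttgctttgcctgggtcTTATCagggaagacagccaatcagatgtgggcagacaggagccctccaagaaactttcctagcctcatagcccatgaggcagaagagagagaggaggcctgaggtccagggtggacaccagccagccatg
Kit, chr5:75574737-75575036: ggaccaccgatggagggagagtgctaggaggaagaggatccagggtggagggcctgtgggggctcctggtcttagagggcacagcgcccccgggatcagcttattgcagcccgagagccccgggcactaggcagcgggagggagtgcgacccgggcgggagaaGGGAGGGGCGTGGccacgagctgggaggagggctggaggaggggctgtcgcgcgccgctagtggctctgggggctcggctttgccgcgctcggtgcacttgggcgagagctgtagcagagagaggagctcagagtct
Alas2, chrX:150547167-150547466: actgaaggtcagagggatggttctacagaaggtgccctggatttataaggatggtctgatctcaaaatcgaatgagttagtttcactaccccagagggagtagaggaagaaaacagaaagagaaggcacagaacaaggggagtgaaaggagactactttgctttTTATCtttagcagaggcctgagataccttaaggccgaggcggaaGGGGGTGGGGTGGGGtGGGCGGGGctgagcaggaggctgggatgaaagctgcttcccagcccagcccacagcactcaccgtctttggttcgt
The Klf1 window held 1 GATAA and no CCNCNCCC match, the Kit window 2 overlapping CCNCNCCC matches and no GATAA, and the Alas2 window 1 GATAA and 4 CCNCNCCC matches, some overlapping. Of 32851 RefSeq promoter windows of this length, 25.4% held GATAA and 49.5% held CCNCNCCC on either strand, so a match is a description of the letters and not of a bound site.

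**Figure D4:**
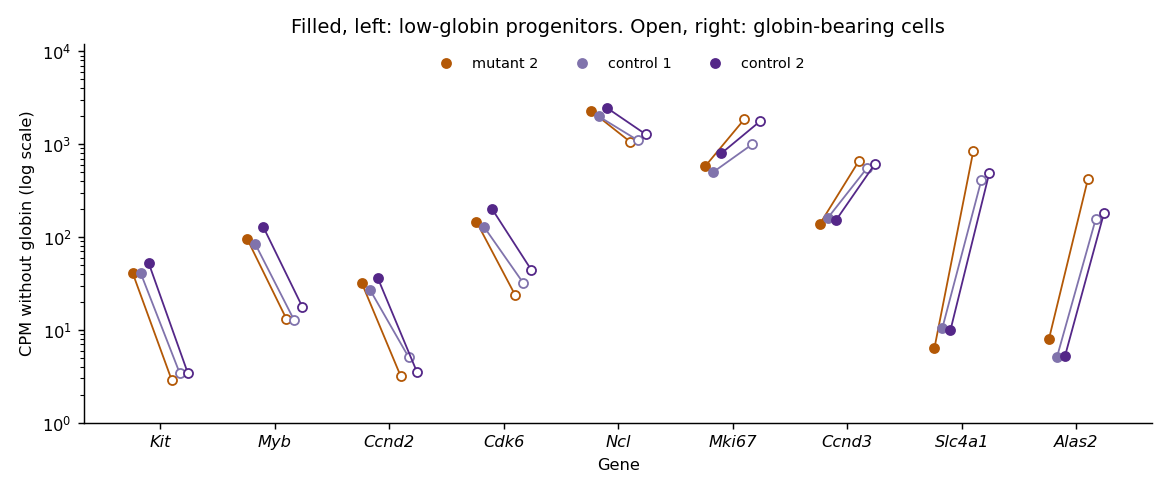
CPM with globin genes removed (log scale) of 9 genes in low-globin progenitors (filled, left) and globin-bearing cells (open, right) of mutant 2, control 1 and control 2, with a line joining the classes of a library. Kit, Myb, Ccnd2, Cdk6 and Ncl slope down toward the globin-bearing cells and Mki67, Ccnd3, Slc4a1 and Alas2 slope up, in each library.

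Ribosome biogenesis genes were almost uniformly higher in low-globin members. Of 85 genes tested, 79 were higher and none was lower, with a median log2 difference of 0.88. Ncl, which encodes nucleolin, had 2292, 1987 and 2462 CPM in low-globin members, against 1069, 1102 and 1275 CPM in globin-bearing cells, a log2 difference of 0.81 ± 0.05. Npm1, the nucleolar chaperone nucleophosmin, differed by 1.24 ± 0.09 on the log2 scale. Polr1b, a core subunit of RNA polymerase I, differed by 1.68 ± 0.12, and Mdn1, the AAA ATPase that remodels the large subunit precursor, by 1.73 ± 0.10. The mature ribosomal protein genes were nearly level, with a median of -0.10 over 80 tested genes, 2 higher and 40 lower. Of 23 translation factors, 9 were higher and 4 lower, with a median of 0.10. Beside 28.5% higher and 26.8% lower over all tested genes, this split says little of the factors. The lowest was Eif2ak1, the haem-regulated kinase that restrains translation, at -1.18 ± 0.09.

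Cell cycle genes were lower in low-globin members. Of 43 S phase genes 38 were lower and 1 was higher, with a median log2 difference of -0.79. Rrm2, the small subunit of ribonucleotide reductase, had 422, 361 and 353 CPM in low-globin members, against 1162, 819 and 817 CPM in globin-bearing cells, a difference of -1.44 ± 0.07. The S phase gene that was higher was Cdca7, at 0.55 ± 0.08. Of 52 G2 and M phase genes 51 were lower, with a median of -0.92, and Mki67, the proliferation marker Ki-67, differed by -1.42 ± 0.11.

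The cyclins, cyclin-dependent kinases and inhibitors were split. Of 22 genes tested 4 were higher and 17 lower. Those higher were Ccnd1 at 3.41 ± 0.17, Ccnd2 at 2.75 ± 0.18, Cdk6 at 2.04 ± 0.12 and Cdk4 at 0.33, all of which act in the passage through G1. Cdk6, a partner of D-type cyclins, had 147, 127 and 198 CPM in low-globin members, against 23.6, 32.0 and 44.3 CPM in globin-bearing cells. Those lower included Ccnd3 at -2.15 ± 0.09 and the INK4 inhibitors of CDK4 and CDK6, Cdkn2c at -2.16 ± 0.12 and Cdkn2d at -2.79 ± 0.11.

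**Figure D5:**
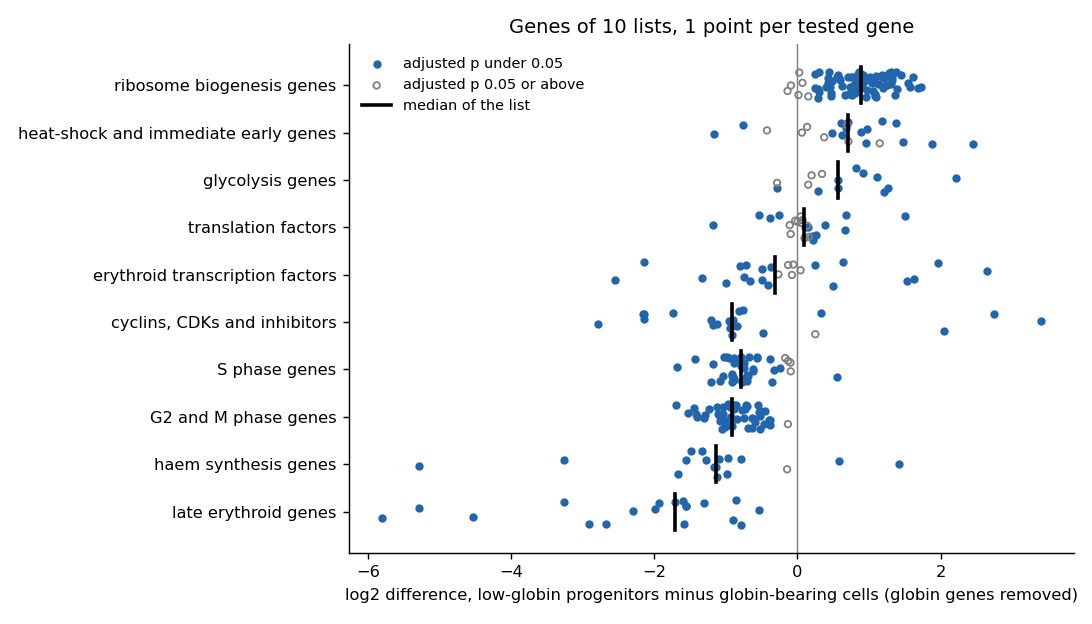
Log2 difference between low-globin progenitors and globin-bearing cells (edgeR, globin genes removed, mutant 2, control 1 and control 2) for each tested gene of 10 lists, with filled points at an adjusted p under 0.05, open points above it and a black bar at each list's median. Medians lie at 0.88 for ribosome biogenesis, -0.79 for S phase, -0.92 for G2 and M phase and -1.71 for late erythroid genes, against 0.02 over all tested genes.

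Transcription factors of the erythroid programme differed in both directions across the limit, with 7 of 24 higher and 12 lower. Over all tested genes 28.5% were higher and 26.8% lower, so the share of factors that were higher is near that of all genes. Myb, which holds progenitors in proliferation, had 94.8, 83.9 and 128 CPM in low-globin members, against 13.2, 12.7 and 17.8 CPM in globin-bearing cells, a log2 difference of 2.64 ± 0.09. Myc differed by 1.63 ± 0.12, Cbfa2t3 (the corepressor ETO2) by 1.52 ± 0.11 and Bcl11a, the repressor of embryonic and foetal globin genes, by 0.63 ± 0.08. Lower were Sox6, which acts with BCL11A, at -2.55 ± 0.10, E2f2 at -2.15 ± 0.13 and Nfe2 at -1.33 ± 0.11. Gata1 was lower by a smaller step, at -0.49 ± 0.08.

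Haem synthesis and late erythroid genes were lower in low-globin members. Of 17 haem genes 14 were lower and 2 higher, with a median of -1.14. Slc25a37 (mitoferrin 1), which brings iron into mitochondria, had 37.0, 40.1 and 47.2 CPM in low-globin members, against 567, 260 and 388 CPM in globin-bearing cells, a difference of -3.26 ± 0.18. Those higher were Flvcr1, a transporter known for haem export, at 1.42 ± 0.13, and Alas1, the non-erythroid form of the first enzyme, at 0.58 ± 0.11. Alas1 did not pass with equal totals, at 0.11, or without control 2, at 0.49. All 19 late erythroid genes tested were lower, with a median of -1.71. Of 16 iron handling genes 2 were higher and 6 lower, with a median of -0.12. Beside 28.5% higher and 26.8% lower over all tested genes, this split says little of the list. Tfrc was at 756, 823 and 1007 CPM in low-globin members, against 1331, 1229 and 1451 CPM in globin-bearing cells, a difference of -0.79 ± 0.06.

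Of 19 signalling genes of KIT and the erythropoietin receptor, 7 were higher and 6 lower. Over all tested genes 28.5% were higher and 26.8% lower, so this split is near theirs and says little of these genes. Epor itself was level, at 0.11 ± 0.08. Stat5a, a transducer of the receptor, was higher at 1.51 ± 0.09, while the STAT5 target genes Cish, at -1.71 ± 0.20, and Pim1, at -1.54 ± 0.11, were lower. Glycolysis genes were 9 higher and 1 lower of 14 tested, with a median of 0.56, and Ldha, lactate dehydrogenase A, differed by 1.21 ± 0.12. Heat-shock and immediate early genes were 13 higher and 2 lower of 22 tested, with the mitochondrial chaperone pair Hspd1 at 1.47 ± 0.10 and Hspe1 at 1.18 ± 0.12. Interferon-stimulated genes were 2 higher and 8 lower of 18, with Isg15 at -2.21. The m6A machinery was 7 higher and 3 lower of 19, with a median of 0.02, that of all tested genes. Beside 28.5% higher and 26.8% lower over all tested genes, this m6A split says little of these genes.

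The ranking by a fixed rule (smallest p among genes past the threshold, same sign in every library) named 10 genes in each direction. Higher in low-globin members, beside Kit, Myb and Ccnd1, were Gna15, a G protein alpha subunit, at 3.90 ± 0.17, Ydjc at 3.29 ± 0.15, Ifngr1, a chain of the interferon gamma receptor, at 3.02 ± 0.13, Gm15915 at 2.77 ± 0.10, Rangrf at 2.22 ± 0.10, Gcsh at 2.20 ± 0.08 and Abhd14a at 2.14 ± 0.10. Lower, beside Alas2 and Slc4a1, were Fn3k, the fructosamine 3-kinase, at -5.25 ± 0.15, Gm867 at -4.23 ± 0.11, Cdc25b, a phosphatase that promotes entry into mitosis, at -3.70 ± 0.11, Acp5 at -3.32 ± 0.13, Adam33 at -3.28 ± 0.11, Apol8 at -3.15 ± 0.12, Gmpr at -2.97 ± 0.10 and Tmem14c, a mitochondrial protein needed for haem synthesis, at -1.13 ± 0.04.

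Genotype was compared within the members. The rule did not choose barcodes by genotype, but its Cdh5 and Ibsp condition acted unequally on the libraries. It turned away 111 barcodes against 59 kept in mutant 2, 49 against 875 in control 1 and 36 against 880 in control 2. Mettl3 had 20.0 and 22.3 CPM in members of mutant 1 and mutant 2, and 19.2 and 23.1 CPM in members of control 1 and control 2. The mutant values lay within the control range, in cells in which Prx1-cre is not known to act, and a 3′ count need not lie in the deleted part, so this checks nothing about the deletion. With only 7 cells, mutant 1 fell under the minimum of 10 members set for a library and was left out of the fit. The comparison was therefore mutant 2 against control 1 and control 2, in which genotype cannot be told apart from that 1 library, and p-values measure only the spread between the 2 control libraries and the spread shared over genes.

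Few genes differed by genotype within the members. Of 12111 genes tested with edgeR's quasi-likelihood test, 26 were higher in mutant 2 members at an adjusted p under 0.05, 0.215% of those tested, and 0 were lower. At an unadjusted p under 0.05 there were 522 genes in either direction, and DESeq2 called 20 higher and 0 lower. In this fit none of the genes called was on the erythroid, haem, cell cycle, ribosome or m6A lists. A fit of all 4 libraries with the processing version as a term, in which edgeR let single genes keep no spread of their own beside the shared trend, called 48 higher and 2 lower, among them the beta-globin gene Hbb-bs. Hbb-bs had 1449 and 1563 CPM in mutant members, against 840 and 1039 CPM in control members, and differed by 0.69 ± 0.31 on the log2 scale without mutant 1 (not passing) and by 0.68 with it (edgeR adjusted p = 0.000119). Hbb-bs was one of the globin genes that chose the members, so this is a description. The early erythroid marker Mt1, a metallothionein, was also called in that fit, at 0.54 (edgeR adjusted p = 0.0104). The median log2 difference was -0.13 for S phase genes, 0.03 for G2 and M phase genes, 0.04 for ribosome biogenesis genes and -0.10 for late erythroid genes, against -0.03 over all genes. Kit differed by -0.23 ± 0.26, Gata1 by -0.22 ± 0.25, Myb by -0.20 ± 0.28 and Mki67 by -0.19 ± 0.33, and none passed the test. On simulated counts of the same depth the fit recovered 35% of 2-fold and 65% of 4-fold changes, so changes of these sizes can be missed. The simulation gave every gene the same fixed spread and no batch or free RNA difference, so recovery in the real data can differ.

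The 10 genes named by rule, all higher in mutant 2 members, were Ngp, Ltf, Lcn2, Stfa3, Camp, Stfa1, Stfa2l1, Csta2, Wfdc21 and S100a8, among them the neutrophil granule proteins encoded by Ngp, Ltf, Lcn2 and Camp. Ngp had 56.9 CPM in members of mutant 2, against 0.346 and 0.414 CPM in control members, and was at 0 in the 7 members of mutant 1. The log2 difference was 7.16 ± 0.28 (edgeR adjusted p = 6.96e-07). Of the 26 genes, 6 were on the neutrophil list, 1 on the macrophage list (Lyz2) and 1 on the osteolineage list (Bglap, osteocalcin), and 7 carried the names Stfa, Cstdc or Csta, close copies among which reads may be shared. All 26 had a higher level in the free RNA of mutant 2 than in that of either control, with Ngp at 780 CPM in mutant 2 against 34.1 and 43.7 CPM in the controls. When the barcodes with any other-type marker list at 0.5% or more of UMIs were left out, which were 1 in mutant 2, 7 in control 1 and 1 in control 2, 14 of 11998 genes (0.117%) were higher and 11 of those were among the 26. The difference of Ngp was then 3.88 ± 0.71 on the log2 scale. Of the 26 genes, Camp, Lyz2, Pglyrp1, Cd52, Anxa1, Alox5ap, Tyrobp and Retnlg no longer passed. Ltf, Wfdc21, Csta2, Stfa2, Mmp8, Cd177 and Ifitm6 were no longer among the genes tested. The osteolineage genes Col1a1 and Col1a2, not among the 26, differed by 2.98 ± 0.52 and 2.76 ± 0.50 in that fit. With all members they differed by 2.99 ± 0.62 and 2.66 ± 0.62. Bglap had 17.5 CPM in mutant 2 members, against 3.02 and 3.75 CPM in control members, with a log2 difference of 2.32 ± 0.29 (edgeR adjusted p = 0.00442), while DESeq2 gave an adjusted p of 0.0566. The part of free RNA in what remained was not tested. With the globin limit at 2% in place of 1%, 0 genes were higher, and 0 were higher when mutant 1 stood in for mutant 2.

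The summed programmes of the members in mutant 2 lay between the values of the 2 control libraries. Those 2 libraries also differ in processing version, so a place between them does not show that genotype makes no difference. The S phase list took 70.0 and 68.7 UMIs per 10000 in mutant 1 and mutant 2 members, against 67.2 and 73.2 in control 1 and control 2 members. The G2 and M phase list took 84.5 and 104 in mutant members, against 100 and 104 in control members. Ribosome biogenesis took 143 and 161 in mutant members, against 143 and 163 in control members. Apart from G2 and M phase in mutant 1, which rests on 7 cells, the mutant values lay within or beside the control range. Mutant 2 minus the control mean was -1.45 for S phase, 1.88 for G2 and M phase and 7.99 for ribosome biogenesis. With 3 libraries an exact two-sided permutation test cannot give a p under 0.333, so it says nothing of a difference, and it gave p = 1 for each of these lists and for the ribosomal proteins. Against control 2 alone, which shares mutant 2's processing version, the differences were -4.44, -0.108 and -2.01. Control 1 and control 2 differed from each other by more than mutant 2 did from control 2 in all 3 lists. As control 1 and control 2 have different processing versions, nothing about genotype is read from that.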

How the data were processed

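The 4 libraries are 10x Genomics 3′ v3.1 gene expression from sorted limb marrow. The authors deposited raw UMI counts per gene and barcode on mm10, per the file headers and labels, with Cell Ranger 5.0.1 (mutant 1, control 1) and 6.1.2 (mutant 2, control 2) per the submitters' processing notes, while headers of 3 libraries name another version. No source used here names the gene annotation. Deposited counts totalled 47390414 and 81890483 UMIs in mutant 1 and mutant 2, and 116863081 and 114143361 in control 1 and control 2. Counts of members were summed per library and tested with edgeR 4.0.16 (TMM, filterByExpr, quasi-likelihood, Benjamini-Hochberg over all genes tested), with DESeq2 1.42.0 as an alternative. A processing-version term had been planned for the genotype fit, but with mutant 1 left out (under 10 members) it would leave no residual degrees of freedom, so it was dropped. Whether the libraries come from separate mice is not stated, so the spread may be technical. The fit was tested on simulated data. Genes named by rule were the 10 in each direction with the smallest p past the threshold and 1 sign in every library. Other named genes come from lists. The members and lists were chosen with earlier results of these data known. Doublets were scored with Scrublet and removed only in an alternative.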

Additional observations from a re-analysis of the deposited data

How the results depend on the processing

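In the genotype comparison the 26 higher and 0 lower genes became 70 and 17 with no low count filter, 40 and 1 with up to 2 UMIs of Cdh5 and Ibsp allowed, and 48 and 2 with all 4 libraries and a batch term. Doublet removal gave 9 lower genes. The count of higher genes was 0 with globin under 2% and 14 without barcodes bearing other-type markers. With all 4 libraries and no batch term, leaving out 1 library at a time gave 0 to 32 higher and 0 to 10 lower genes, where a lone mutant library is assumed to vary like the controls. Without mutant 2, so with the 7 cells of mutant 1, the log2 difference was -6.24 for Ngp, -5.61 for Lcn2, -5.26 for Stfa3, -7.05 for Camp, -7.87 for Stfa1, -5.50 for Stfa2l1 and -6.17 for Lyz2, all at 0 UMIs in those cells, so these fitted values are no bounds. The count of genes that differed across the globin limit, 3259 higher and 3064 lower, was 1740 and 1850 with all sums thinned to 2000000 UMIs, and ranged over 2063 to 3557 and 1962 to 3738 when 1 library was left out. No gene called in both changed direction under any of these settings. The mutant minus control difference in the share of members was -18.9 percentage points, -4.90 after thinning, -9.77 among Klf1+ Car1+ barcodes and between -23.4 and -14.3 without 1 library. List differences between genotypes changed sign. With 3 libraries the exact permutation test could not give a p under 0.333, so no list could pass it. S phase was 1.68 with globin under 2%, 1.26 with up to 2 UMIs of Cdh5 and Ibsp, and -4.44 to 1.55 without 1 control library. G2 and M phase was -0.897 with globin under 0.5%, -1.93 with up to 2 UMIs of Cdh5 and Ibsp, and -0.108 to 3.86 without 1 control library. Without 1 control library, ribosome biogenesis ranged from -2.01 to 18.0 and ribosomal proteins from -289 to 130. The cause was not tested. The alternatives added after seeing the data were those on Cdh5 and Ibsp, other-type markers, equal totals and all 4 libraries. The fit of all 4 libraries with a batch term is also the only one that pairs a mutant with a control library (by processing version), since no label ties replicate numbers to a shared mouse, litter or day. Leaving out a library from the 3-library genotype fit leaves no residual degrees of freedom or no mutant, so it was not run. Depth limits the genotype comparison, which rests on 2518386 UMIs in mutant 2 members.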
